A study of Mus musculus with 2 samples.

Results

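The Ms4a genes encode small proteins that cross the cell membrane several times, and most are read in 1 lineage of blood cells or another. Ms4a1 encodes CD20, the B cell surface protein, and Ms4a2 encodes the beta chain of the high-affinity IgE receptor of mast cells and basophils. Ms4a4b is known from T and NK cells, and Ms4a4a, Ms4a6c, Ms4a6d and Ms4a7 from monocytes and macrophages. The 9 genes described here were chosen by symbol (Ms4a1, Ms4a2, Ms4a4a, Ms4a4b, Ms4a4c, Ms4a6b, Ms4a6c, Ms4a6d and Ms4a7). No rule on their values was applied, but earlier results of these data were known when the list was made. They are 9 of 32285 genes in the count matrices and 9 of the 19 genes there whose symbol starts with Ms4a, and each matched 1 row.

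The cells came from wild-type C57/BL6 mice that carried orthotopic Hepa1-6 tumours, a mouse hepatoma line grown in the liver. Mice received anti-PD-1, an antibody against the T cell checkpoint receptor PD-1, or an isotype control antibody. Live CD45-positive cells were enriched on beads, sorted, and sequenced with 10x Genomics 3′ v2 chemistry as 1 library per group, so there are no replicates and no test between the antibodies. The sources used here do not give the number of mice behind each library, their age, the antibody doses or the time of sampling. Unique molecular identifiers (UMIs) count captured RNA molecules, and 72148493 were deposited over 10149 barcodes with anti-PD-1 and 67520433 over 9683 with isotype. After filters on quality and doublets, 9719 and 9263 cells remained, with a median of 6308 and 6112 UMIs, and 140 barcodes occurred in both libraries.

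Cell classes were assigned from lineage markers other than Ms4a genes, which placed 7444 (76.6%) and 6964 (75.2%) of the cells. The largest classes were classical monocytes (2257 cells with anti-PD-1, 1801 with isotype), neutrophils (2127 and 2127) and C1q macrophages (889 and 884). T cells numbered 522 and 453 and NK cells 65 and 74. Levels are given as CPM, UMIs of a gene scaled to a fixed total of all UMIs of a class in a library, with the anti-PD-1 value first and exact Poisson 95% intervals where shown. All intervals cover counting error only and say nothing of the spread between mice. A level difference between the libraries within a class can come from fewer cells of a subtype or from less RNA per cell, which cannot be told apart in a summed class.

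All 9 genes lie in 1 cluster on chromosome 19, chr19:11249675-11623719 in mm10, which spans 374 kb and holds 12 genes of the family. Ms4a4a, Ms4a4c, Ms4a4b, Ms4a6c and Ms4a6b follow each other on the plus strand, and Ms4a1, Ms4a7, Ms4a6d and Ms4a2 lie on the minus strand. Their lengths run from 8197 bases (Ms4a2) to 23503 (Ms4a4b). Ms4a4c (chr19:11404770-11427246) and Ms4a4b (chr19:11443553-11467055) are direct neighbours, as are Ms4a6c (chr19:11469366-11482192) and Ms4a6b (chr19:11516512-11531256). RefSeq promoter windows of GRCm38.p6, from 250 bases before to 50 after the start, were at hand for 7 of the 9 genes. By local alignment score these neighbours were the most alike, with 259 and 254 against at most 29 for any other pair. The promoters of Ms4a4b and Ms4a4c matched at 89.3% of 178 aligned positions, and those of Ms4a6b and Ms4a6c at 82.5% of 234.

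The 250 bases before the RefSeq start of these 4 genes are printed because each pair shares much of its promoter while the pattern over cells differs. Ms4a4b is read in T and NK cells and Ms4a4c mainly in monocytes, and Ms4a6b is read in T cells as well as in the monocytes and macrophages that hold Ms4a6c. Capitals mark bases that are aligned with and identical to the partner gene, all on the plus strand, at chr19:11443308-11443557 (Ms4a4b), chr19:11407411-11407660 (Ms4a4c), chr19:11518309-11518558 (Ms4a6b) and chr19:11469118-11469367 (Ms4a6c). For Ms4a4c and Ms4a6b the RefSeq start lies inside the annotated gene.
Ms4a4b: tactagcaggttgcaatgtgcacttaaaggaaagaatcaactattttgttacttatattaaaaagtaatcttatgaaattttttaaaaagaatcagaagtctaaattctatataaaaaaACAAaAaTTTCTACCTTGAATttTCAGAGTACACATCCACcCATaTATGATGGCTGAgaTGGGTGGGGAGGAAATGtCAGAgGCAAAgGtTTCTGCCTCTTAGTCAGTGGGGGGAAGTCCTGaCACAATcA
Ms4a4c: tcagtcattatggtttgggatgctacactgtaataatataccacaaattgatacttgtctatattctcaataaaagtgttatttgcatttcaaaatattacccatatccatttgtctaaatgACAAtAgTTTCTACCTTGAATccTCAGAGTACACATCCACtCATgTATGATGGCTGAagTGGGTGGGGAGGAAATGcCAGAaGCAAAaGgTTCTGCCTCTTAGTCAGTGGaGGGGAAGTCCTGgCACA
Ms4a6b: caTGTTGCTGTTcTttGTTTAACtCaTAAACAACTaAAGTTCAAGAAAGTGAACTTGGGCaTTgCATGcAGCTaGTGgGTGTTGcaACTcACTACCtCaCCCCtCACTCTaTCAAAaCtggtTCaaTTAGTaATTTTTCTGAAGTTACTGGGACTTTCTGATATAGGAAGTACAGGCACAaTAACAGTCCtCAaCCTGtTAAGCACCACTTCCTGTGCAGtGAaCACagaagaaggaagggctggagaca
Ms4a6c: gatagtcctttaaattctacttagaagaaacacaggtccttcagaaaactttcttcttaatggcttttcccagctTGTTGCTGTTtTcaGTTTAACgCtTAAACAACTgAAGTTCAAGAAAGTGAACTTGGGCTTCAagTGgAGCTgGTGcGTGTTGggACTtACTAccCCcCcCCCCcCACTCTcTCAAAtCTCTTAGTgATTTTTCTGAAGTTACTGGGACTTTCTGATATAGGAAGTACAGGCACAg
The windows were searched on both strands for an interferon-stimulated response element (TTTC, any 2 bases, TTTC), a gamma-interferon activation site (TTCNNNGAA) and a PU.1 site (GAGGAAGT). These letters occur in 3.44%, 8.30% and 3.20% of 32851 RefSeq promoter windows of the same length, and in none of the 7 Ms4a windows.

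The heat map of levels by class shows how the family was divided. Ms4a1 was a B cell transcript and Ms4a2 a basophil or mast cell transcript. Ms4a4b was a T and NK cell transcript, Ms4a6b was at like levels in T cells and monocytes, and Ms4a4a, Ms4a4c, Ms4a6c and Ms4a6d were chiefly monocyte and macrophage transcripts. Ms4a7 was low everywhere and highest in C1q macrophages. In immature neutrophils no member was above 17.8 CPM, and in mature neutrophils none was above 28.7 CPM.

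**Figure D1:**
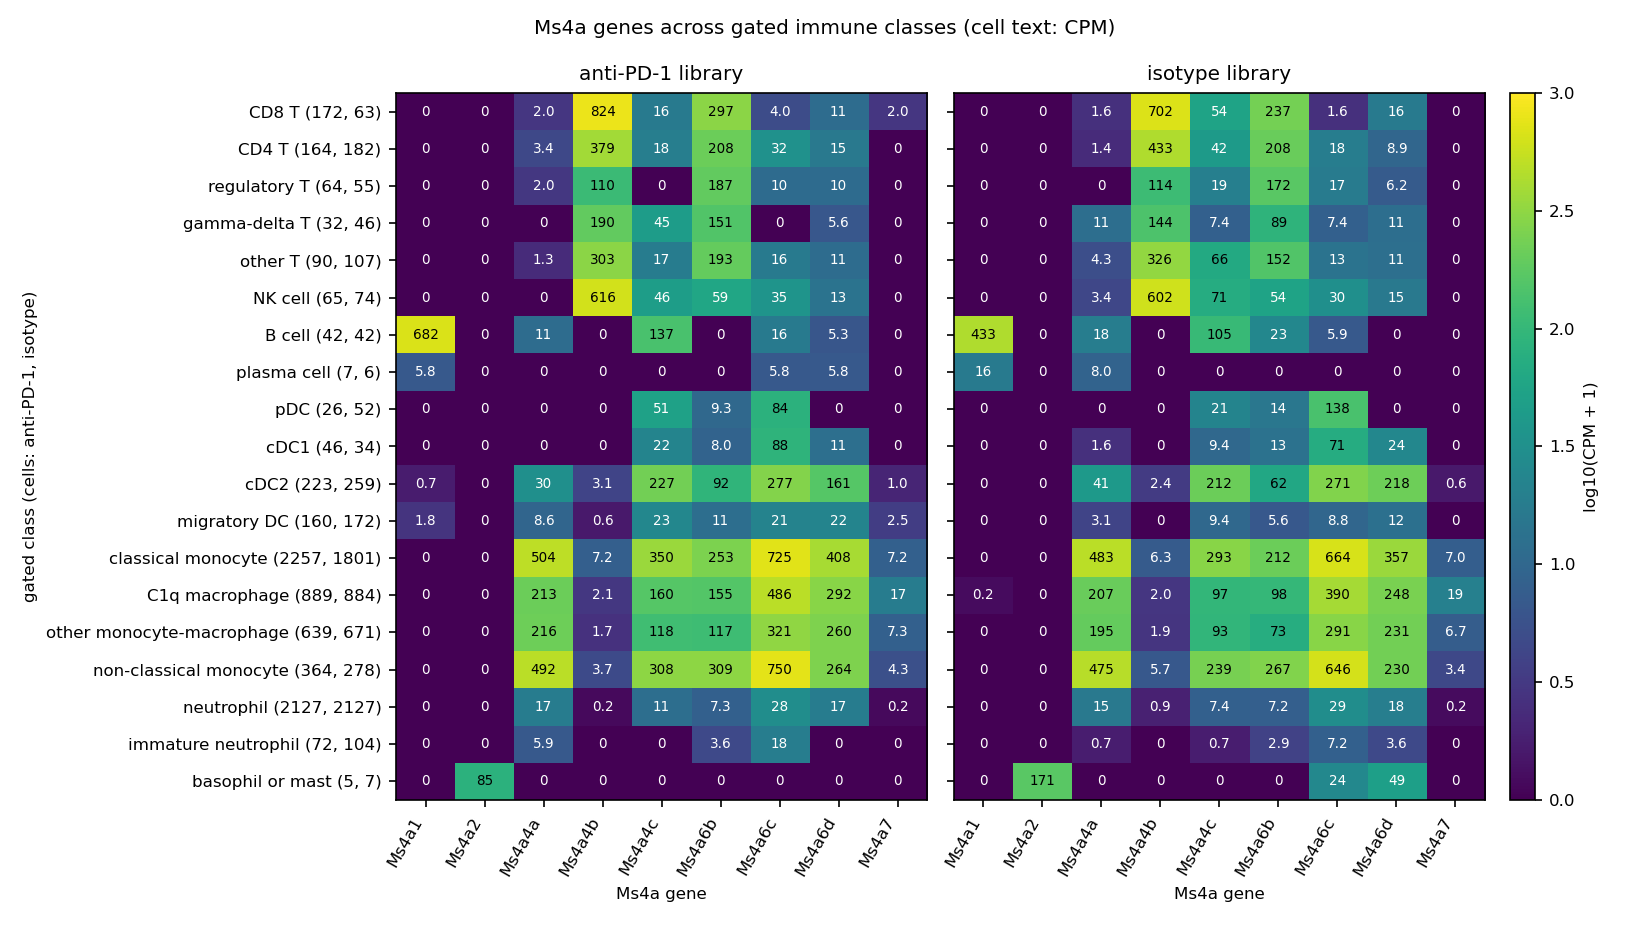
Level of each Ms4a gene (columns) in each gated class (rows) with anti-PD-1 (left) and with isotype (right), as CPM of the class total. Colour is log10(CPM + 1), the numbers are CPM, and the row labels give the cells of each class with anti-PD-1 and isotype. The same columns are bright in the same rows in both libraries, for example Ms4a1 in B cells (682 and 433) and Ms4a4b in CD8 T cells (824 and 702).

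In the lymphoid classes Ms4a1 was the most class-bound gene with more than a few UMIs. It stood at 682 CPM (569.5 to 810.5) in 42 B cells with anti-PD-1 and at 433 CPM (340.2 to 543.9) in 42 with isotype. The level was higher with anti-PD-1, but 34 of its 129 UMIs there came from 1 cell, and the class is below the 50 cells required for a comparison between libraries. After each cell was thinned to 1000 UMIs, 50% (exact Clopper-Pearson 34.2 to 65.8%) and 29.3% (16.1 to 45.5%) of the B cells had an Ms4a1 UMI, and these intervals overlap. B cells made up 0.583% of the gated cells and held 95.3% of the gated Ms4a1 UMIs (203 of 213). No Ms4a1 UMI was found in the 2127 neutrophils of either library, which allows a share of up to 0.141% of cells with a UMI. Cd79a, a chain of the B cell receptor complex and one of the markers that set the class, stood at 3247 and 2722 CPM.

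Ms4a2 had 2 UMIs in 5 basophil or mast cells with anti-PD-1 and 7 UMIs in 7 such cells with isotype, or 84.8 CPM (10.3 to 306) and 171 CPM (68.9 to 353). All 9 gated UMIs fell in this class, which was 0.0833% of the gated cells. Fcer1a, the IgE-binding chain that Ms4a2 accompanies in the receptor, likewise had all of its 50 gated UMIs there (7 and 43), but it was among the markers that defined the class. The counts are too few to compare the libraries.

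Ms4a4b, which modulates T cell activation, was highest in CD8 T cells at 824 CPM (784 to 865) with anti-PD-1 and 702 CPM (638 to 772) with isotype. NK cells followed at 616 and 602 CPM and CD4 T cells at 379 and 433 CPM. T cells that met no subset rule, with no subset marker or with conflicting ones (other T), were at 303 and 326 CPM. Regulatory T cells were at 110 and 114 CPM. The order was the same in both libraries, but the counting intervals of CD8 T and NK cells overlapped with isotype, where that of NK cells was 541 to 668 CPM. In Leiden clusters, where the T cell subsets have no cluster of their own, NK cells were highest in both libraries, and with 1 marker more per gate in the isotype library. Of the gated cells in the NK cell cluster, 62.7% were NK cells. T and NK cells were 7.73% of the gated cells and held 92.9% of the gated Ms4a4b UMIs. In thinned CD8 T cells, 54.1% (46.3 to 61.7%) and 43.5% (31.0 to 56.7%) had an Ms4a4b UMI, against 95.3% and 95.2% without thinning. No thinned neutrophil had one, for which the exact Clopper-Pearson upper bounds are 0.188% and 0.191%. The median depth was 9116 and 7665 UMIs in CD8 T cells and 2057 and 1914 in neutrophils. Classical monocytes held Ms4a4b at 7.18 and 6.32 CPM, the most among the myeloid classes of 50 cells or more per library.

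Ms4a6b spanned both arms of the immune system. It stood at 297 CPM (274 to 322) and 237 CPM (200 to 279) in CD8 T cells, 208 and 208 CPM in CD4 T cells, and 187 and 172 CPM in regulatory T cells. In non-classical monocytes, the patrolling monocytes of the blood, it stood at 309 CPM (290 to 329) and 267 CPM (247 to 287), and in classical monocytes at 253 and 212 CPM. Non-classical monocytes, CD8 T cells and classical monocytes overlapped with their neighbours in the order once both libraries were considered. NK cells were far lower at 59.2 and 54.0 CPM, and neutrophils were at 7.25 and 7.17 CPM. The T cell UMIs were spread over many cells: 84.9% and 82.5% of CD8 T cells had at least 1 Ms4a6b UMI, and 25% and 25.8% after thinning, against 0.255% and 0.156% of thinned neutrophils.

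The balance of Ms4a4b to Ms4a6b therefore differed among the lymphocytes. In NK cells there were 10.4 and 11.2 Ms4a4b UMIs per Ms4a6b UMI. The ratio was 2.77 (2.52 to 3.05) and 2.96 (2.45 to 3.59) in CD8 T cells, 1.82 and 2.09 in CD4 T cells, and 0.587 and 0.663 in regulatory T cells. These are ratios of tagged 3′ ends and not of levels per length, so only their differences between classes are compared. The order NK, CD8, CD4, regulatory was the same in both libraries.

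Ms4a4c, the neighbour with the promoter like that of Ms4a4b, was a minor transcript in lymphocytes. B cells held the most at 137 and 105 CPM, from 26 and 18 UMIs. NK cells held 46.2 and 70.8 CPM, CD8 T cells 15.6 and 53.6 CPM, CD4 T cells 18.3 and 42.3 CPM, and other T cells 17.2 and 66.0 CPM. Regulatory T cells had 0 UMIs with anti-PD-1, which allows up to 6.11 CPM at 3 counts, and 18.6 CPM with isotype from 9 UMIs, 7 of them in 1 cell. In every T cell class with a value the isotype library was the higher, apart from gamma-delta T cells (44.7 and 7.39 CPM), where all 8 UMIs of the anti-PD-1 library came from 1 cell.

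**Figure D2:**
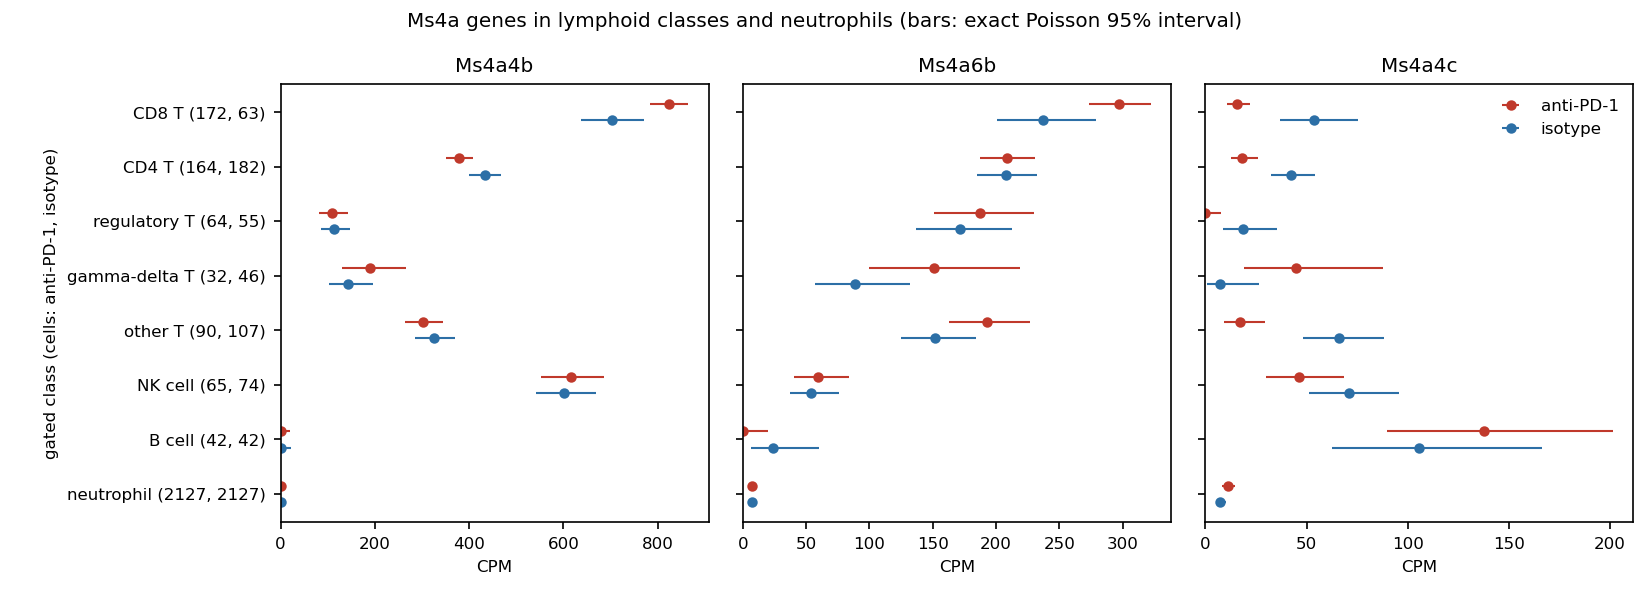
Level (CPM, horizontal axis) of Ms4a4b, Ms4a6b and Ms4a4c in lymphoid classes, with neutrophils as the background class. Red points are the anti-PD-1 library, blue points the isotype library, bars exact Poisson 95% intervals, and each panel has its own scale. In CD4 and CD8 T cells the ratio between the libraries is nearer to 1 for Ms4a4b and Ms4a6b than for Ms4a4c. The Ms4a4b intervals in CD8 T cells, 784 to 865 and 638 to 772 CPM, do not overlap. Ms4a4c in CD4 and CD8 T cells is at 18.3 and 15.6 CPM with anti-PD-1 and 42.3 and 53.6 CPM with isotype.

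Among myeloid classes Ms4a6c, a gene of monocytes and macrophages, was highest in monocytes. It stood at 750 CPM (721 to 781) and 646 CPM (615 to 677) in non-classical monocytes, and at 725 CPM (713 to 737) and 664 CPM (652 to 676) in classical monocytes, which could not be ordered. C1q macrophages, which transcribe the complement C1q genes as mature tissue macrophages do, had 486 and 390 CPM. Monocyte-macrophage cells with neither gene set had 321 and 291 CPM, and conventional type 2 dendritic cells (cDC2) 277 and 271 CPM. Plasmacytoid dendritic cells had 83.7 and 138 CPM from 18 and 58 UMIs, and cDC1 had 88.1 and 70.8 CPM. In thinned classical monocytes 46.7% (44.6 to 48.8%) and 42.9% (40.6 to 45.2%) had a UMI, against 1.34% and 1.33% of thinned T cells.

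Ms4a4a, a surface protein of macrophages, was concentrated in monocytes. Classical monocytes stood at 504 CPM (495 to 514) and 483 CPM (473 to 494), and non-classical monocytes at 492 and 475 CPM. C1q macrophages and the other monocyte-macrophage cells were lower and overlapped with each other, with 213 and 207 CPM and with 216 and 195 CPM. cDC2 were at 30.1 and 41.1 CPM and T cells at 2.33 and 2.55 CPM. No thinned T cell had a UMI, against 35.1% and 34.4% of thinned classical monocytes.

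Ms4a6d, the third of the macrophage genes, was highest in classical monocytes at 408 CPM (399 to 416) and 357 CPM (348 to 366). C1q macrophages (292 and 248 CPM), non-classical monocytes (264 and 230 CPM) and other monocyte-macrophage cells (260 and 231 CPM) overlapped with each other. cDC2 held 161 and 218 CPM. Plasmacytoid dendritic cells had no Ms4a6d UMI in 26 and 52 cells, which allows a share of up to 11.5% and 5.77% of cells with a UMI, although they held Ms4a6c. In thinned classical monocytes 30.5% and 27.4% had a UMI, against 1.92% and 0.665% of thinned T cells.

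Ms4a4c was highest in classical monocytes at 350 CPM (342 to 358) and 293 CPM (285 to 301), with non-classical monocytes at 308 and 239 CPM. Unlike Ms4a4a it was also high in cDC2, at 227 and 212 CPM. C1q macrophages had 160 CPM (151 to 169) and 97.2 CPM (90.9 to 104). The UMI ratio of Ms4a4a to Ms4a4c was 1.44 and 1.65 in classical monocytes and 0.133 and 0.194 in cDC2.

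Ms4a7, a macrophage gene by repute, was the rarest of the macrophage members. C1q macrophages had 17.3 CPM (14.6 to 20.4) and 19.2 CPM (16.4 to 22.2), classical monocytes 7.23 and 6.97 CPM and non-classical monocytes 4.34 and 3.42 CPM. It was detected in 6.41% and 9.39% of C1q macrophages, and after thinning in 1.12% (0.541 to 2.06%) and 2.38% (1.48 to 3.61%), against none of the thinned T cells. Thinned classical monocytes had 0.842% (0.508 to 1.31%) and 0.833% (0.467 to 1.37%), and other monocyte-macrophage cells 1.11% and 1.35% (0.619 to 2.55%). The intervals of C1q macrophages and classical monocytes thus overlapped with anti-PD-1. Of the 141 UMIs in C1q macrophages with anti-PD-1, 20 came from 1 cell. The monocyte-macrophage and non-classical gates held 97.8% of the gated Ms4a7 UMIs.

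Single cells often read several members at once. After thinning to 1000 UMIs, 49.4% and 45.0% of classical monocytes had UMIs of at least 2 of the 6 members Ms4a4a, Ms4a4b, Ms4a4c, Ms4a6b, Ms4a6c and Ms4a6d. The share was 47.5% and 42.4% in non-classical monocytes, 31.2% and 21.6% in C1q macrophages, 17.04% and 15.1% in cDC2, and 1.15% and 1.77% in T cells. In neutrophils it was 0.613% and 0.311%.

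Over the 13 classes that had 50 or more cells per library, taken as 26 points of log2(CPM + 10), the members fell into sets. These correlations are descriptions over points that share libraries and depth. Ms4a6c and Ms4a6d had r = 0.96, Ms4a4a and Ms4a6c 0.95, and Ms4a4c and Ms4a6d 0.88. The pairs with like promoters were less alike in pattern: Ms4a6b and Ms4a6c had r = 0.34 and Ms4a4b and Ms4a4c r = -0.20. Of 4947 other genes, those most like Ms4a4b were Prkcq (r = 0.99), a kinase of T cell receptor signalling, Sh2d1a, an adaptor of T and NK cells, Cd96, Sh2d2a and Ctsw. Those most like Ms4a4a were Lrp1 (0.98), Clec4a3, Clec4a1 and Tifab. Ms4a7 was most like Ccl12 (0.96), Ccl7, Lpl, Mmp13 and Mrc1, of which Ccl12 and Ccl7 are monocyte-attracting chemokines and Mrc1 the macrophage mannose receptor. Ms4a6b was most like Ifi203 (0.95), an interferon-inducible gene, followed by Tmem192, Ostc, Bscl2 and Sar1b. For Ms4a4c the closest gene reached 0.88 (Nptn, followed by Tm2d2, Cyp4f16, Uck2 and Utp14a), and for Ms4a6c Pitpna led with 0.97. B cells are not among the points, so no likeness is given for Ms4a1.

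Within the monocyte-macrophage gate the members differed along a gradient of C1q genes. Cells were thinned to 1000 UMIs and binned by their summed C1qa, C1qb and C1qc UMIs, from 0 to over 10. From the lowest to the highest bin Ms4a4a went from 472 to 198 CPM with anti-PD-1 and from 430 to 229 CPM with isotype. Most of that difference was already present in the bin with 1 to 2 C1q UMIs, at 254 and 238 CPM. With isotype the later bins were at 208, 227 and 229 CPM, without a fall at each step. Ms4a4c went from 321 to 155 CPM and from 255 to 89.5 CPM. Ms4a7 took the opposite course, from 6.84 to 66.2 CPM and from 6.26 to 59.0 CPM. The end bins of Ms4a6c and Ms4a6d differed less, with the last at 0.846 and 0.706 of the first for Ms4a6c and at 0.745 and 0.854 for Ms4a6d. In between, Ms4a6c was lower than at either end, down to 458 CPM in the fourth bin with anti-PD-1 and 377 CPM in the second with isotype. The shift away from Ms4a4a and Ms4a4c and towards Ms4a7 was present in both libraries, but Ms4a7 in the bin with 6 to 10 C1q UMIs was at 10.1 CPM with anti-PD-1 and 32.0 CPM with isotype.

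**Figure D3:**
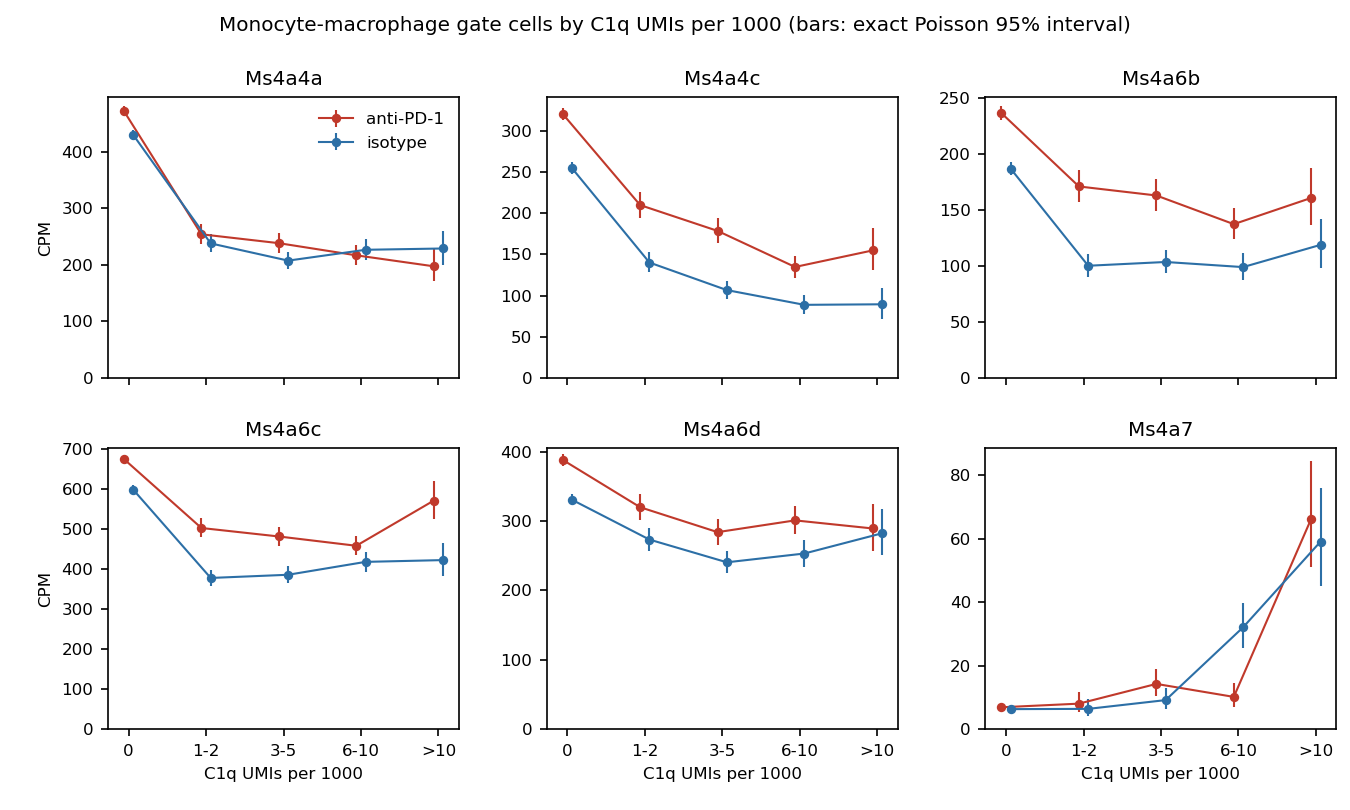
Level (CPM, from full counts) of 6 members in cells of the monocyte-macrophage gate, by the number of C1q UMIs among 1000 per cell (horizontal axis). Red is anti-PD-1, blue is isotype, and bars are exact Poisson 95% intervals. Ms4a4a is lower in the last bin than in the first (198 against 472 CPM with anti-PD-1), Ms4a7 is higher (66.2 against 6.84 CPM), and Ms4a6c and Ms4a6d vary less.

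A second binning used 9 interferon-induced genes (Gbp2, Gbp5, Irf1, Isg15, Ifit3, Ly6a, Iigp1, Cxcl9 and Igtp). Ms4a4c was higher in each successive bin in both libraries, from 214 to 475 CPM with anti-PD-1 and from 162 to 486 CPM with isotype, a log2 difference of 1.15 and 1.59. Its counting intervals overlapped between the third and the fourth bin with anti-PD-1 (336 to 372 and 368 to 416 CPM). With isotype those of the fourth and the last bin overlapped (359 to 436 and 411 to 570 CPM), and the last held 36 cells. Ms4a6c (549 to 731 and 487 to 814 CPM), Ms4a6d (321 to 485 and 287 to 447 CPM) and Ms4a6b (173 to 298 and 138 to 267 CPM) were also higher at each step. With anti-PD-1, however, the counting intervals of neighbouring bins from the second to the last overlapped for all 3 of these genes. With isotype those of the third and the fourth bin overlapped for all 3. There the fourth and the last bin also overlapped for Ms4a6b and Ms4a6d, and the second and the third for Ms4a6b. Ms4a4a was lower at the end, from 438 to 198 CPM and from 365 to 228 CPM. Along this gradient, then, Ms4a4a and Ms4a4c, which are alike over classes at r = 0.79, went in opposite directions.

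**Figure D4:**
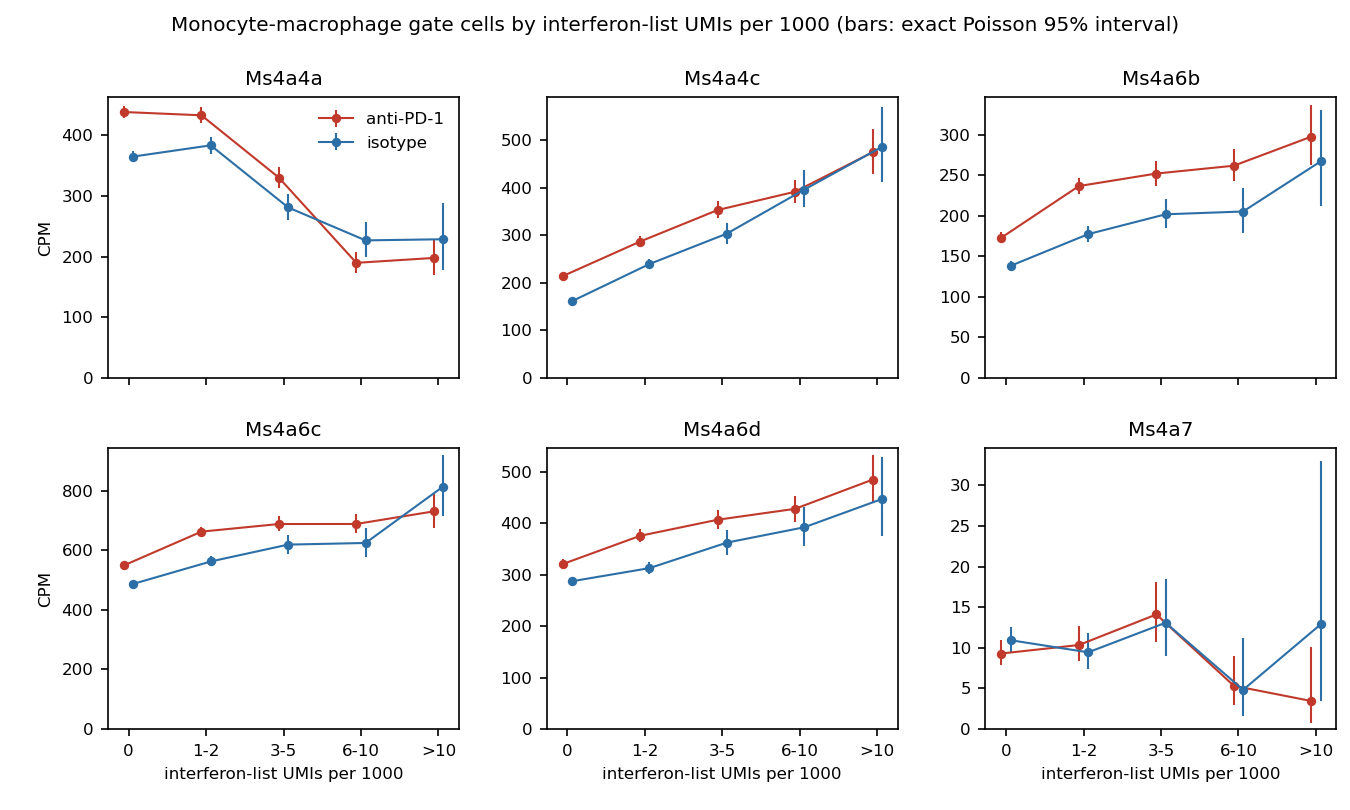
Level (CPM, from full counts) of 6 members in cells of the monocyte-macrophage gate, by the number of interferon-list UMIs among 1000 per cell (horizontal axis). Red is anti-PD-1, blue is isotype, and bars are exact Poisson 95% intervals. Ms4a4c climbs from 214 to 475 CPM and from 162 to 486 CPM, Ms4a4a goes down from 438 to 198 CPM and from 365 to 228 CPM, and the red and blue points of Ms4a4c meet in the last 2 bins.

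Between the libraries, a member was compared in a class only with at least 50 UMIs of it there, which left 51 of 117 pairs of a member and a class. A difference was called at 1.5-fold or more, as a size and not a test. Of the 51 pairs, 7 were called higher and 4 lower with anti-PD-1, and 40 were neither. Over all genes measured in each of the 13 classes, the share called ranged from 2.4% to 11.9% higher and from 1.04% to 6.73% lower. The called pairs held Ms4a4c in 7 cases, Ms4a6b in 2, Ms4a6c in 1 and Ms4a6d in 1. Over the whole monocyte-macrophage gate none of 7 members was called, beside 2.31% of genes higher and 1.5% lower.

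In C1q macrophages, 2 of 6 measured members were called higher, where 3.55% of 9058 genes were, and none lower, where 1.59% were. Ms4a4c was at 160 CPM with anti-PD-1 and 97.2 CPM with isotype, a log2 ratio of 0.72 (0.59 to 0.84). Ms4a6b was at 155 and 98.4 CPM, a log2 ratio of 0.66 (0.53 to 0.78). Ms4a6c (0.32) and Ms4a6d (0.23) differed less, and Ms4a4a (0.04, -0.05 to 0.14) and Ms4a7 (-0.15, -0.48 to 0.18) had intervals that include 0. The median over the 6 members was 0.28, beside 0.06 over all genes of the class. The same cells held more of the interferon list with anti-PD-1, at 2667 and 1278 CPM for its 9 genes, and more of the 6 classical monocyte genes, at 2244 and 1420 CPM. Their part in the 2 calls was not tested. In bins of like C1q content the Ms4a4c ratio ranged from 0.33 to 0.79.

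In classical monocytes all 7 measured members had a log2 ratio above 0 but none was called higher or lower, beside 2.4% and 1.04% of 9909 genes. Their median was 0.18, and 0.07 over all genes, of which 66.8% were above 0. The ratios ran from 0.05 for Ms4a7 to 0.26 for Ms4a4c (0.21 to 0.31). Non-classical monocytes were alike, with 5 of 5 members above 0, none called (3.78% of genes higher, 1.87% lower) and Ms4a4c the highest at 0.37 (0.22 to 0.51). In the other monocyte-macrophage cells 1 of 6 members was called higher, beside 4.27% of genes, and none lower, beside 1.73%. It was Ms4a6b, at 117 and 73.4 CPM, with a log2 ratio of 0.67 (0.47 to 0.87).

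Ms4a4c was more different between the libraries in C1q macrophages than in classical monocytes, by 0.46 (0.33 to 0.59) on the log2 scale, and Ms4a6b by 0.40 (0.27 to 0.54). At like interferon-list content the Ms4a4c ratio was 0.41 in cells without such a UMI, 0.26 and 0.22 in the next 2 bins, and -0.02 (-0.18 to 0.15) and -0.03 (-0.31 to 0.24) in the last 2. More cells of the anti-PD-1 library lay in the last 2 bins, 7.76% and 2.57% against 3.16% and 1.07%. The Ms4a6b ratio was 0.32, 0.42, 0.32, 0.35 and 0.16 (-0.21 to 0.53) from the first bin to the last.

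In T cells Ms4a4c was lower with anti-PD-1. Over all T cells it had 84 UMIs (16.3 CPM, 12.99 to 20.2) against 152 (43.1 CPM, 36.5 to 50.5), a log2 ratio of -1.40 (-1.81 to -1.01). It was 1 of 5 measured members called lower, beside 3.4% of 8710 genes, and none was called higher, beside 6.27%. The ratio was -1.21 (-1.88 to -0.57) in CD4 T cells, -1.78 (-2.53 to -1.03) in CD8 T cells and -1.94 (-2.95 to -1.03) in other T cells. In each of these subsets 1 member was called lower, where 3.72%, 4.04% and 4.53% of genes were. NK cells were called lower as well, at -0.62, but with an interval from -1.39 to 0.13, as 1 of 3 members beside 4.17% of genes. The most UMIs in 1 T cell were 8 and 13, and without the top cell of each library the ratio over all T cells was -1.42. Without thinning 10.2% and 17.2% of T cells had an Ms4a4c UMI, and after it 1.92% (0.922 to 3.49%) and 2.88% (1.54 to 4.88%), which is too few cells to show a difference at that depth. With 1 marker more per gate the ratio was -1.01. In the 3 Leiden clusters named for T cells, which take in cells outside the gate, it was -0.35. There the monocyte gene Ms4a6c had a ratio of 1.45 against 0.27 in the gate. What lies behind the smaller Ms4a4c difference in these clusters was not tested.

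The sign in T cells was opposite to that in the monocyte-macrophage gate, where Ms4a4c had a log2 ratio of 0.43 (0.38 to 0.47). The difference of the 2 ratios was -1.83 (-2.22 to -1.44). The interferon list stood at 1530 and 1687 CPM in CD8 T cells and at 2828 and 3074 CPM in CD4 T cells. The monocyte-macrophage markers summed to 31.3 and 8.13 CPM in CD8 T cells, 14.8 and 10.2 CPM in CD4 T cells and 23.8 and 63.1 CPM in other T cells, and the 4 Kupffer cell markers were at 0 in all 3 classes. The 6 NK cell markers summed to 362 and 634 CPM in CD8 T cells, all 6 with a UMI in both libraries, to 169 and 126 CPM in CD4 T cells, where Ncr1 and Klrb1c were at 0, and to 299 and 320 CPM in other T cells. Ms4a4c itself was at 46.2 and 70.8 CPM in NK cells. The 7 migratory dendritic cell markers stood at 241 and 467 CPM in CD8 T cells, with a median of 0 markers per cell in both libraries. There Ccl22 was at 0 in both libraries, and Cacnb3 and Nudt17 were at 0 with isotype. These 7 markers stood at 219 and 190 CPM in CD4 T cells and at 202 and 171 CPM in other T cells. The part of these marker sets and of the interferon list in the Ms4a4c difference was not tested.

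Ms4a4b and Ms4a6b went another way in T cells. Ms4a4b had a ratio of 0.37 over all T cells, of 0.23 (0.08 to 0.39) in CD8 T cells and of -0.19 (-0.35 to -0.03) in CD4 T cells. CD8 T cells, in which it is highest, numbered 172 with anti-PD-1 and 63 with isotype, so the pooled value takes in the make-up of the T cells as well. Ms4a6b had 0.32 (0.06 to 0.60) in CD8 T cells and 0.01 (-0.22 to 0.23) in CD4 T cells. None of these was called higher, where 11.9% of CD8 and 8.39% of CD4 T cell genes were. Per Ms4a4b UMI there were 0.0190 and 0.0764 Ms4a4c UMIs in CD8 T cells and 0.0482 and 0.0978 in CD4 T cells. Of the 50-base words in the last 500 bases of Ms4a4c transcripts 11.1% also occur in Ms4a4b or Ms4a4d transcripts, so a part of the reads of these genes cannot be placed on 1 gene only, and their counts are uncertain to that extent. The share was 4.22% for Ms4a4b, 4.31% for Ms4a6b, 7.76% for Ms4a6c and 0 for the other 5 members.

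The 1 member called higher in a T cell subset was Ms4a6c in CD4 T cells, with 56 UMIs (32.0 CPM) and 26 UMIs (17.8 CPM) and a ratio of 0.85 (0.15 to 1.58). In neutrophils it was at 28.4 and 28.7 CPM, near the anti-PD-1 value and above the isotype value, and after thinning 3.05% and 1.10% of CD4 T cells had a UMI. C1q genes in the same cells were at 21.7 and 4.10 CPM, and their part was not tested. In regulatory T cells 0 of 2 measured members were called (6.93% of genes higher, 6.73% lower), and in other T cells none of 3 was called higher (11.8% of genes). NK cells had none of 3 called higher, beside 8.51% of genes.

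Dendritic cells differed by member. In cDC2 none of 5 members was called, beside 6.61% of genes higher and 1.96% lower. Ms4a6b was the higher with anti-PD-1 (91.6 and 62.4 CPM, 0.55, 0.29 to 0.82), whereas Ms4a4a (30.1 and 41.1 CPM, -0.45, -0.85 to -0.06) and Ms4a6d (161 and 218 CPM, -0.44, -0.61 to -0.27) were the lower. Ms4a4c (0.10) and Ms4a6c (0.03) had intervals that include 0. The monocyte-macrophage markers in cDC2 summed to 322 and 346 CPM and the C1q genes to 18.1 and 28.7 CPM, and their part was not tested. In migratory dendritic cells 2 of 2 measured members were called higher, where 4.13% of genes were and 4.11% were lower. Ms4a4c had 38 and 15 UMIs (1.31, 0.42 to 2.28) and Ms4a6d 35 and 19 UMIs (0.85, 0.01 to 1.74), and the monocyte-macrophage markers there summed to 73.9 and 36.4 CPM, whose part was not tested. Both were lower with anti-PD-1 in Leiden clusters, at -0.39 and -0.60. In neutrophils Ms4a4c, with 54 and 34 UMIs, was the 1 of 5 members called higher (0.60, -0.05 to 1.26), beside 3.72% of genes, and none was lower, beside 3%.

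**Figure D5:**
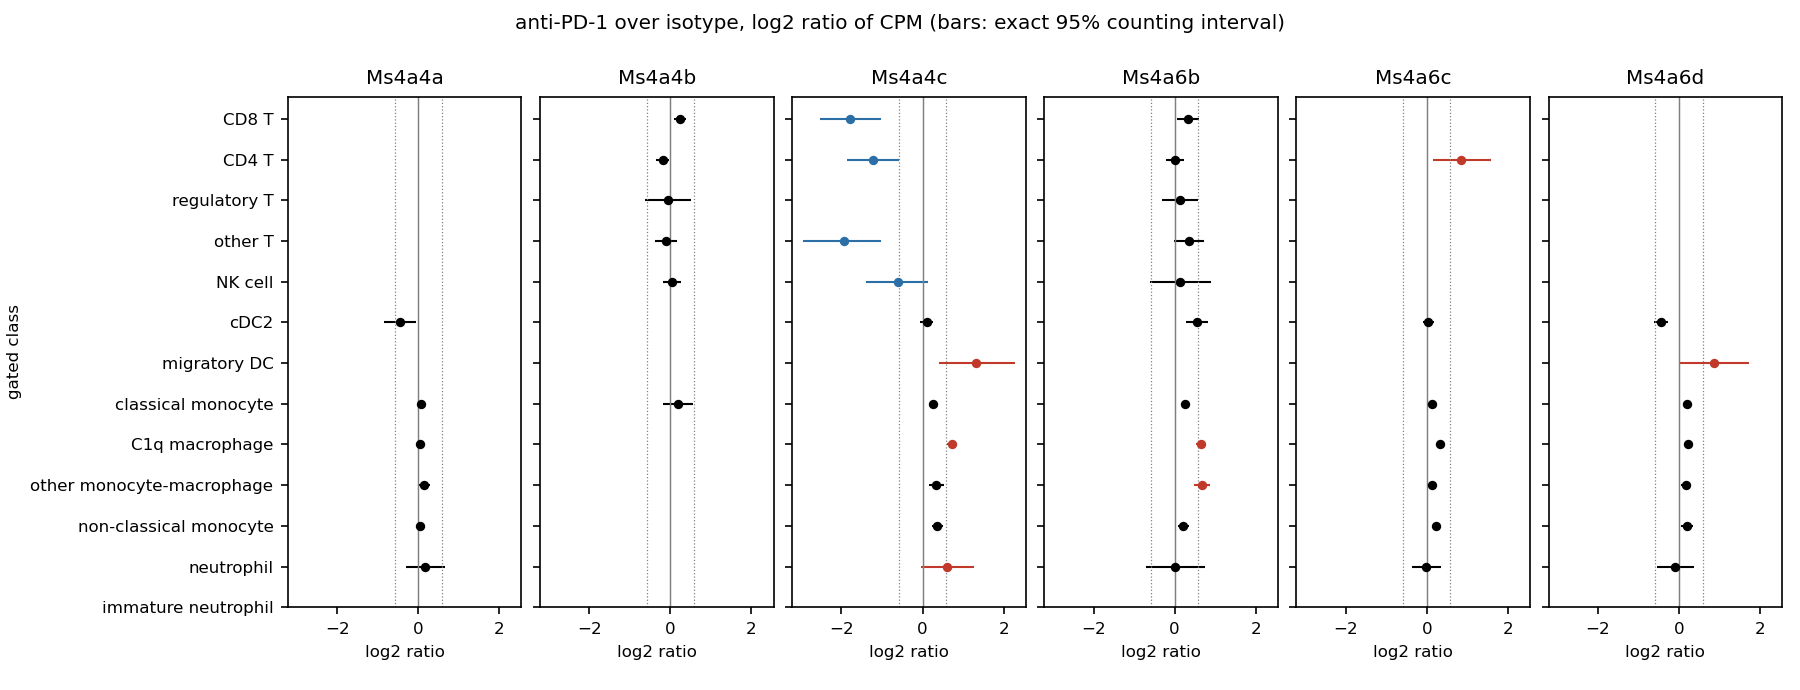
Log2 ratio of CPM, anti-PD-1 over isotype (horizontal axis), of 6 members in each class where at least 50 UMIs were counted. Bars are exact 95% counting intervals, dotted lines mark 1.5-fold, red points are called higher and blue points lower. Ms4a4c lies left of 0 in CD4, CD8 and other T cells (-1.21, -1.78 and -1.94) and right of it in C1q macrophages (0.72). Ms4a4a and Ms4a6c stay between the dotted lines in the myeloid classes shown. The Ms4a6c bars lie right of 0 in the monocyte and macrophage classes, with values from 0.13 in classical monocytes to 0.32 in C1q macrophages.

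Of the family genes that are not among the 9, Ms4a3, a gene of granulocyte precursors, was at 228 and 177 CPM in immature neutrophils, where the 9 members had no measured value. The fold background there was 6.9% of genes higher and 3.68% lower. Ms4a8a was at 44.9 and 45.6 CPM in classical monocytes and 24.9 and 19.5 CPM in C1q macrophages. The 8 others in the matrices had at most 11 UMIs over the kept cells of both libraries. Tmem176a and Tmem176b, relatives of the family outside the cluster, peaked elsewhere: Tmem176b was at 966 and 620 CPM in gamma-delta T cells and 631 and 565 CPM in migratory dendritic cells. Tmem176a, too, was lower with anti-PD-1 over all T cells, at 47.3 and 96.3 CPM and a ratio of -1.03 (-1.27 to -0.78). That pooled value takes in the make-up of the T cells as well. Within subsets the ratio was -0.88 (-1.34 to -0.43) in CD4 T cells and -1.24 (-1.83 to -0.68) in other T cells. Over all T cells 3.4% of genes were called lower, and 3.72% and 4.53% in these subsets. CD8 T cells (8 and 1 UMIs, 4.04 and 1.63 CPM) and regulatory T cells (4 and 1 UMIs) had too few to compare. Tmem176b was at 0.0002 (-0.39 to 0.39) in CD4 T cells and -0.71 (-1.17 to -0.26) in other T cells. In NK cells both were called higher with anti-PD-1, Tmem176a at 0.97 (0.20 to 1.77) and Tmem176b at 0.90 (0.27 to 1.56), beside 8.51% of genes. Trem2, a lipid receptor of macrophages, was at 127 and 145 CPM in C1q macrophages, a ratio of -0.19 (-0.31 to -0.07).

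Cells that met no gate (1792 and 1932) carried the family as well. Ms4a6c was at 358 and 284 CPM there, Ms4a4a at 224 and 189 CPM and Ms4a4c at 148 and 102 CPM. All 7 measured members had a log2 ratio above 0, from 0.01 for Ms4a7 to 0.54 for Ms4a4c (0.41 to 0.67), and none was called, beside 3.33% of genes higher and 1.67% lower.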

How the data were processed

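Single-cell RNA was measured in 1 anti-PD-1 and 1 isotype library. The authors deposited raw UMI counts without normalization, produced by Cell Ranger 5.0.1 per the file headers. Cell Ranger 2.1.1 and build mm10 stand in the submitters' processing notes. The matrices hold called cells with at least 500 UMIs. Barcodes under 500 UMIs or 200 genes, or above 10% mitochondrial UMIs, were dropped. Doublets were scored by scrublet (scanpy 1.11.5, expected rate 0.06). Its automatic threshold marked 2 and 0 cells, so scores above 0.25 were removed (295 and 303 cells), a value taken from earlier work on these data.

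Cells were gated by detected markers, for example at least 3 of Cd3e, Cd3d, Cd3g, Trac and Trbc2 for T cells, and no Ms4a gene entered a gate. CD8, CD4, regulatory and gamma-delta T cells were split by Cd8a, Cd8b1, Cd4, Foxp3, Trdc and Tcrg-C1, C1q macrophages had at least 2 UMIs of each C1q gene, and classical monocytes, among the others, at least 3 of Ly6c2, Chil3, Vcan, F13a1, Ccr2 and Plac8. Cells in several gates (483 and 367) and in none (1792 and 1932) were left out of the classes. CPM were formed from the sum of a class in each library. Log2 ratios carry exact conditional binomial 95% intervals, and calls mean at least 1.5-fold among genes with at least 50 UMIs. A count of 0 is given a limit of 3 counts. Thinning drew 1000 UMIs per cell and left out shallower cells (170 and 200 neutrophils, 10 and 4 monocyte-macrophage cells outside the classical and C1q classes, 0 and 2 T cells, and at most 4 cells in any other class). Likeness is Pearson r over genes with at least 50 CPM in 1 class, for members with at least 200 gated UMIs over both libraries, and genes among the 5 with the highest r are named, without members, gate markers, mitochondrial, ribosomal protein and receptor segment genes. The ratio and its interval were checked on simulated counts. The software was Biopython 1.88, matplotlib 3.10.9, scipy 1.17.1, pandas 2.3.3 and numpy 2.4.6 on Python 3.11.15, with TMM factors from edgeR 4.0.16.

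The 9 genes and all lists were chosen with earlier results of these data known. Ms4a20 and Clec7a are not analysed here. Alternatives were other mitochondrial, depth and doublet limits, 1 marker more or fewer per gate, TMM scaling, thinning, the mean over cells, Leiden clusters made without Ms4a genes, other UMI minimums and leaving out the cell with most UMIs. A few genes are not reported here, and the interferon list is used without one of them.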

Additional observations from a re-analysis of the deposited data

Results flagged for a closer look

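In 6 cases a member was lower with anti-PD-1 in 1 class, with a counting interval below 0, and higher in others, with intervals above 0. With 1 library per group these differences between classes were not tested. Ms4a4c had a log2 ratio of -1.78 in CD8 T cells, -1.21 in CD4 T cells and -1.94 in other T cells, and was higher in 5 classes: migratory dendritic cells, classical monocytes, C1q macrophages, other monocyte-macrophage cells and non-classical monocytes. Ms4a6d had -0.44 in cDC2 and was higher in the same 5 classes. Ms4a4a had -0.45 in cDC2 and was higher in classical monocytes and other monocyte-macrophage cells. Ms4a4b had -0.19 in CD4 T cells and was higher in CD8 T cells.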

How the results depend on the processing

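Over 13 alternatives the 51 log2 ratios gave 605 values, of which 546 moved by no more than the counting interval and 53 moved further. The remaining 6 changed sign, counted only for ratios whose interval left out 0. Ratios whose interval includes 0 crossed it as well and are not among the 6. For example, Ms4a4c in neutrophils, called higher at 0.60, reached -0.17, and Ms4a6c in cDC2 went from 0.03 to -0.55. Of the 30 ratios whose interval left out 0, 24 kept their sign under every alternative that gave a value. Among these 30 ratios the sign changed for Ms4a6b in cDC2 (-0.20 with 1 marker fewer per gate) and Ms4a6d in non-classical monocytes (-0.18 with 1 marker more). It also changed for Ms4a4a in other monocyte-macrophage cells (-0.0097 as the mean over cells) and Ms4a4c in non-classical monocytes (-0.0042 after thinning). The last were Ms4a4c and Ms4a6d in migratory dendritic cells (-0.39 and -0.60 in Leiden clusters), and the cause was not tested. The 7 pairs called higher became 1 with 1 marker fewer (41 pairs measured), 1 after thinning (29 pairs), 2 in Leiden clusters (38 pairs), 11 at 20 UMIs or more (61 pairs) and 17 with no minimum (77 pairs). The 4 called lower became 0 after thinning, 2 in Leiden clusters and 9 with no minimum. Fewer pairs reach 50 UMIs after thinning, and the T cell subsets have no Leiden cluster of their own. Ms4a4c in C1q macrophages stayed between 0.56 and 1.09, Ms4a6b there between 0.54 and 0.66, and Ms4a4c between -1.35 and -0.76 in CD4, -1.83 and -1.32 in CD8 and -2.07 and -1.12 in other T cells. TMM scaling shifted ratios by -0.13 in other T cells, -0.11 in immature neutrophils and -0.11 in cDC2, and by less elsewhere, and changed no direction among ratios whose interval left out 0. The highest class was the same in both libraries for 6 of 7 members, and for 5 to 7 under the alternatives. That class was not always the same one: Ms4a4b moved from CD8 T to NK cells in Leiden clusters (both libraries) and with 1 marker more (isotype), Ms4a6b from non-classical monocytes to CD8 T cells with 1 marker fewer and as the mean over cells, Ms4a4a to non-classical monocytes in Leiden clusters and, with isotype, with no doublets removed, and Ms4a4c likewise with isotype in Leiden clusters. Leiden clusters are named for the commonest class among their gated cells and are mixed. That class made up 49.3% of them in the non-classical monocyte cluster and 62.7% in the NK cell cluster. In the classical monocyte clusters it made up 41.4% to 92.7%. No paired analysis was possible because each group is 1 library. The number of mice, and so the spread between them, limits every comparison, and depth limits Ms4a2, Ms4a7 and Ms4a4c in lymphocytes.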

Other observations

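Ms4a3, otherwise a transcript of immature neutrophils, had 42 UMIs in classical monocytes with anti-PD-1 and 9 with isotype (2.04 and 0.532 CPM). The log2 ratio was 1.94 (0.88 to 3.16), in a class where 2.4% of genes were called higher. Over all kept cells Ms4a3 was the lower with anti-PD-1, at 4.52 and 5.70 CPM (-0.33, -0.56 to -0.11). Only 40 and 53 kept cells of any class had an Ms4a3 UMI.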
